A study of Mus musculus with 50 samples.

Results

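The 10 germline genes described here were followed in mouse embryonic stem cells (ESCs) lacking the PRC2 methyltransferase EZH2 alone or together with EZH1, or carrying point mutants of EZH2, with WT cells beside them. The genes were Brdt, Dazl, Ddx4, Mael, Sycp1, Sycp3, Stk31, Slc25a31, Hormad1 and Tdrkh, and all 10 were present among the 18055 genes of the RNA-seq table. They form a named list and not a group found by a threshold. Brdt was chosen by its RNA counts, which were higher in Ezh2 KO than in WT cells, so its comparisons with either of these lines are described and not tested. Earlier results of the same data were also known when the others were listed. All 10 also passed the filter on low values, a mean of at least 5 normalized counts over the 8 libraries, which 13872 genes passed.

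RNA was measured by SMART-seq2 in 4 lines, with 2 libraries per line. WT cells were E14TG2a ESCs, a widely used male mouse ESC line. Ezh2 KO cells carried a CRISPR/Cas9 deletion of the whole Ezh2 gene and kept Ezh1. Ezh1/2 dKO cells carried deletions of both genes. Ezh2 Y726D cells lacked Ezh1 and had a knocked-in point mutation in the SET domain of EZH2 that removes its methyltransferase activity, and a further line, Ezh2 R685C, had another point mutation in the same Ezh1 KO background. The paper reports that R685C rescued H3K27me2 in preference to H3K27me3. The R685C line and dKO cells re-expressing HA-tagged EZH1 were covered here by chromatin data alone. All lines were grown in serum with LIF and inhibitors of GSK3β and MEK, and the mutant lines were isolated as clones, so a mutation and the history of its clone cannot be told apart. The chromatin data used here held 1 library per line and target, for SUZ12, H3K27me1, H3K27me2, H3K27me3, H3K27ac, HA and open chromatin (ATAC-seq), and no difference between lines in those data could be tested. The study also profiled RING1B and H2AK119ub, which were not analysed here.

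Germline genes are normally silent or low outside germ cells. In ESCs many of them have CpG-rich promoters and are held down by DNA methylation, by H3K9 methylation and by a variant PRC1 complex in which MGA and MAX bind the E-box and E2F6 with its DP partner binds the E2F site. PRC2, with EZH1 or EZH2 as the enzyme and SUZ12 as a core subunit, methylates lysine 27 of histone H3. Its trimethylated form, H3K27me3, marks silent CpG-rich promoters, while acetylation of the same lysine, H3K27ac, marks active ones.

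The libraries held 3604123 to 5181553 reads in genes, recovered exactly from the normalized counts. Ezh1 had 14 to 27 reads in the libraries labelled dKO and Y726D, against 170 to 392 in WT and Ezh2 KO. Ezh2 had 1 or 2 reads in each Ezh2 KO and dKO library and 448 to 567 in WT and Y726D, so the labels matched the loss of Ezh1 and Ezh2 RNA. Counts per gene do not show the Y726D mutation itself. The 8 pluripotency markers were all read in each line. They summed to 14780 to 15590 normalized counts per library in WT and 14850 to 15250 in Ezh2 KO. The sums were lower in the dKO, at 13190 to 14050, and in Y726D, at 13210 to 14390. In bulk RNA, more cells expressing a gene and more RNA per cell cannot be told apart.

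The promoters were searched for an E-box and an E2F site. In RefSeq windows from 250 bases before to 50 bases after the start, with 1 window a gene, the E-box CACGTG occurred in 8 of 10 members and in 7.24% of 27025 genes. The E2F core TCCCGC, read on both strands, occurred in 6 of 10 and in 20% of genes. The 6 members with TCCCGC were all among the 8 with CACGTG, and 2.05% of all windows held both. The windows were rich in CpG, with a median of 24 CG dinucleotides against 7 over all genes and a lowest value of 15 at Sycp3. Among the 9504 other genes with at least 15 CG, 11.4% held CACGTG, 45.2% held TCCCGC and 5.02% held both. The sequences below are shown because they carry these letters at Brdt, Mael and Slc25a31, or lack them at Dazl and Tdrkh, the 5 members whose RNA differed most between the dKO and WT. They are RefSeq GRCm38.p6 promoter bases, printed 5′ to 3′ on the strand of the gene up to the earlier of the RefSeq and GENCODE starts, with CACGTG and TCCCGC on either strand in capitals. Each window matched the mm9 chromosome exactly once.
Brdt: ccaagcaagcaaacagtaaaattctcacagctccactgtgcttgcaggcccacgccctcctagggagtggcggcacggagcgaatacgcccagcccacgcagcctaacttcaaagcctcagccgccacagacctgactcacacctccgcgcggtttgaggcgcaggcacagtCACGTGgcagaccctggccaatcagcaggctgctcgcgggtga
Mael: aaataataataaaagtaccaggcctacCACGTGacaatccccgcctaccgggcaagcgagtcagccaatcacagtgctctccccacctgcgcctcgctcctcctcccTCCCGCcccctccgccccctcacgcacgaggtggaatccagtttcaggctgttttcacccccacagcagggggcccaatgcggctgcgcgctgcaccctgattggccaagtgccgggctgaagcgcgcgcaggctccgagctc
Slc25a31: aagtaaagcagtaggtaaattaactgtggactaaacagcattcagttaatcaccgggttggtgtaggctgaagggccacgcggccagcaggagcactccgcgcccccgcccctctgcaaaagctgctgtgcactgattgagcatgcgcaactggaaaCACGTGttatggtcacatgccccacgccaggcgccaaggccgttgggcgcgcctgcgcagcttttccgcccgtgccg
Dazl: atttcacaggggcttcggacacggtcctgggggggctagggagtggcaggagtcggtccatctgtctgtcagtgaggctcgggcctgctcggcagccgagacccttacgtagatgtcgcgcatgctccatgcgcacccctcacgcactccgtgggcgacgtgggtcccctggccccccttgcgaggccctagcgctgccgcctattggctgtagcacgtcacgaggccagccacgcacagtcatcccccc
Tdrkh: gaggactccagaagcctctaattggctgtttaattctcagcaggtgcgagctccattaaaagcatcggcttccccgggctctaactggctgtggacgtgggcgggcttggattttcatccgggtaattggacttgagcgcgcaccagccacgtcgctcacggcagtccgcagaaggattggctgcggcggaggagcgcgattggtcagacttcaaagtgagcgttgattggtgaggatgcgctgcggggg
In mm9 these bases lie just upstream of the gene at chr5:107759963-107760177 on the + strand for Brdt, chr1:168168876-168169125 on the - strand for Mael, chr3:40512543-40512776 on the + strand for Slc25a31, chr17:50432946-50433195 on the - strand for Dazl and chr3:94216916-94217165 on the + strand for Tdrkh. The Brdt E-box began 78 bases before the RefSeq start and that of Slc25a31 began 93 bases before it. Mael held CACGTG 223 bases before its start and TCCCGC 143 bases before it. The TCCCGC of Slc25a31 began 20 bases after its start and is not printed. Hormad1 and Sycp3 each held 2 copies of CACGTG within 64 bases of the start. Dazl and Tdrkh held neither motif in the window. A match of letters is a description of the sequence and does not show that a factor binds there.

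Brdt encodes the testis-specific member of the BET family of bromodomain proteins, which bind acetylated histones. It lies on mm9 chromosome 5 (107760178 to 107816077, + strand). Its normalized counts were 0 and 0.963 in the WT libraries, 17.8 and 15.5 in Ezh2 KO, 51.9 and 67.5 in the dKO, and 8.92 and 15.7 in Y726D. WT was therefore lowest, the dKO highest, and the Ezh2 KO and Y726D libraries overlapped. In reads, these were 1 in WT, 33 in Ezh2 KO, 139 in the dKO and 24 in Y726D, summed over both libraries of a line. Scaled for depth, the dKO had 106 times the WT reads, with an exact 95% counting interval of 18.8 to 4226, Ezh2 KO had 29.7 times (4.97 to 1206) and Y726D had 21.3 times (3.47 to 876). The width of these intervals comes from the single WT read, and they cover counting error only. The dKO had 3.58 times the Ezh2 KO reads (2.44 to 5.41). These ratios share the WT or the Ezh2 KO libraries that brought Brdt into the list and are given as a description. Between Y726D and the dKO, whose counts did not choose it, the fitted log2 fold change of Brdt was -2.23 ± 0.56 (SE, n = 2 libraries per line; limma, adjusted p = 0.119), short of the threshold of 0.1. This fit took its spread from all libraries, among them those of WT and Ezh2 KO, so its p is not independent of the choice of Brdt. A fit of the Y726D and dKO libraries alone did not call it. The same difference passed with edgeR (adjusted p = 0.0733) and with DESeq2 (adjusted p = 0.0583) on the whole reads.

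**Figure D1:**
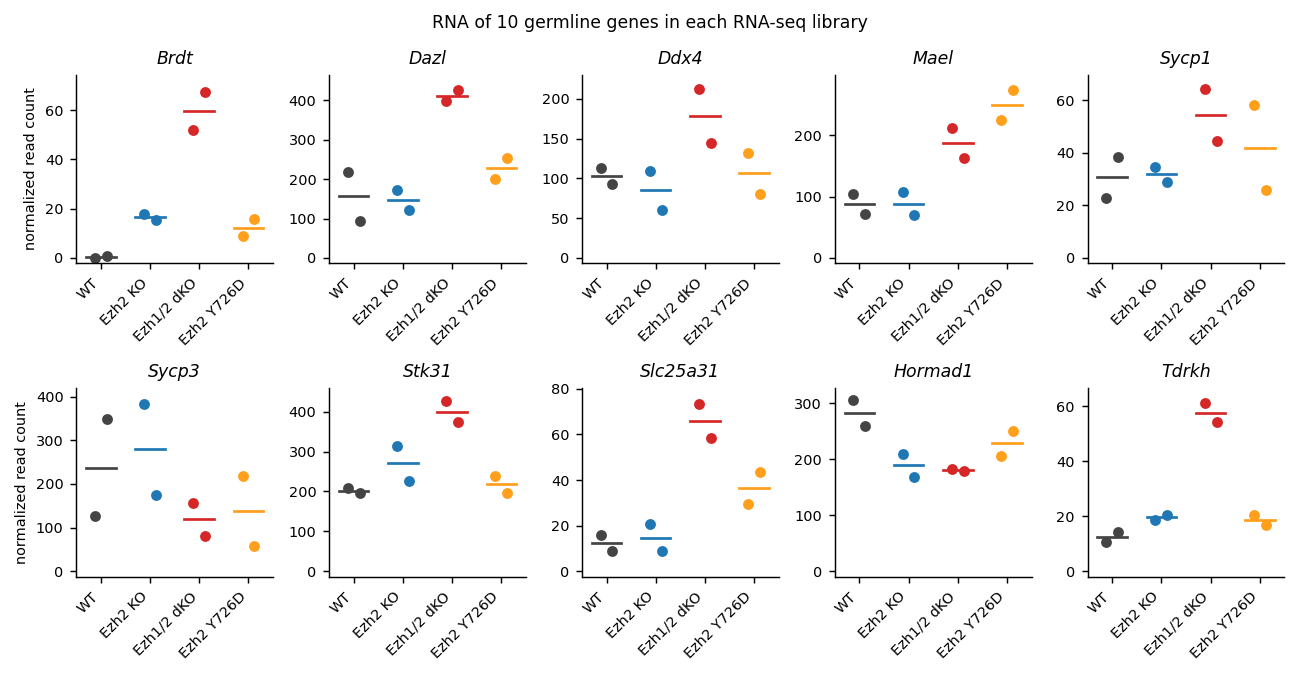
Normalized read counts (y axis, linear) of the 10 germline genes in each of the 8 RNA-seq libraries, by line (x axis); points are single libraries and bars are the mean of 2. Brdt runs from 0 and 0.963 in WT to 51.9 and 67.5 in the dKO, whereas the libraries of Sycp3 overlap between WT, Ezh2 KO and Y726D.

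Dazl, Mael, Slc25a31 and Tdrkh rose in the dKO against WT, 4 of the 9 members other than Brdt, while 3.63% of all genes tested were called higher and 0.389% lower. Genes were called where limma, fitted to log2(normalized count + 1), gave a log2 fold change of 1 or more in size with an adjusted p below 0.1, by Benjamini-Hochberg over all 13872 genes. On this scale the change of a low gene is understated. None of the 9 was called lower. Their median log2 fold change was 0.98, against 0.01 over all genes tested. All of these calls rested on both dKO libraries, since leaving out either one left 0 of 9 members called. Over the whole table, 9 genes were then called without dKO replicate 1 and 3 without dKO replicate 2, against 557 with both. Leaving out WT replicate 2 left 1 of 9, Tdrkh, and leaving out Ezh2 KO replicate 1, which enters the shared estimate of the spread, ended the call of Mael. In these fits the remaining library of a line was assumed to vary like the other lines.

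Dazl (mm9 chr17:50418719-50432924, - strand) encodes an RNA-binding protein that controls translation in germ cells. Its normalized counts were 218.8 and 93.4 in WT, 171.5 and 121.9 in Ezh2 KO, 397.3 and 426.2 in the dKO, and 199.7 and 254.0 in Y726D. The dKO libraries lay above all others, and the 2 WT libraries were farther apart than those of any other line. The log2 fold change of the dKO against WT was 1.52 ± 0.36 (SE; limma, adjusted p = 0.0628). Mael (mm9 chr1:168131516-168168875, - strand) encodes Maelstrom, a protein of the piRNA pathway that silences transposons. It gave 104.1 and 71.2 in WT, 106.6 and 69.7 in Ezh2 KO, 211.0 and 163.4 in the dKO, and 224.7 and 274.1 in Y726D. The libraries of the dKO and Y726D thus lay above all those of WT and Ezh2 KO. Its change in the dKO was 1.10 ± 0.30 on the log2 scale (limma, adjusted p = 0.0937), close to both thresholds. The fold was the same and the adjusted p missed its threshold without the filter on low values, with a mean of at least 20 and with a crossed replicate block chosen after seeing the data, each of which called 3 of 9 members.

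Slc25a31 (mm9 chr3:40512777-40529515, + strand) encodes ANT4, the ADP/ATP carrier of the mitochondria of male germ cells. Its counts were 16.0 and 8.67 in WT, 20.9 and 8.71 in Ezh2 KO, 73.4 and 58.6 in the dKO, and 29.4 and 43.6 in Y726D, with the dKO highest and Y726D between the dKO and the overlapping WT and Ezh2 KO libraries. The dKO was higher than WT by 2.38 ± 0.52 on the log2 scale (limma, adjusted p = 0.0512). Tdrkh (mm9 chr3:94217218-94236555, + strand) encodes a tudor-domain protein on the mitochondrial surface that acts in piRNA trimming. It gave 10.7 and 14.4 in WT, 18.8 and 20.3 in Ezh2 KO, 61.0 and 54.2 in the dKO, and 20.5 and 16.8 in Y726D. Here the dKO stood apart from the 3 other lines. The log2 fold change against WT was 2.12 ± 0.40 (limma, adjusted p = 0.0329), and Tdrkh was called under every alternative that kept both dKO libraries.

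Stk31 (mm9 chr6:49345603-49419500, + strand), which encodes a tudor-domain kinase-like protein of germ cells, missed the call on its fold alone. Its counts were 208.1 and 195.5 in WT, 314.7 and 225.5 in Ezh2 KO, 426.1 and 372.9 in the dKO, and 238.1 and 196.9 in Y726D. The dKO libraries were the highest, with a log2 fold change of 0.98 ± 0.21 against WT (limma, adjusted p = 0.0474), and it was called with TMM factors, with upper-quartile rescaling, with edgeR and without WT replicate 1. Ddx4 (mm9 chr13:113388541-113442518, - strand), the RNA helicase known as Vasa or MVH, gave 113.4 and 93.4 in WT, 109.8 and 60 in Ezh2 KO, 211.8 and 143.8 in the dKO and 132.0 and 80.5 in Y726D. Its dKO libraries also lay above WT, at a log2 fold change of 0.76 with an interval of -0.07 to 1.58 (95%; limma, adjusted p = 0.302).

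The 3 genes of the meiotic chromosome axis and synaptonemal complex, Sycp1, Sycp3 and Hormad1, were not called by limma in any comparison fitted over all 8 libraries. Sycp1 (mm9 chr3:102622422-102740023, - strand), the transverse filament protein, gave 22.7 and 38.5 in WT, 34.5 and 29.0 in Ezh2 KO, 64.3 and 44.4 in the dKO, and 58.0 and 25.7 in Y726D, so that Y726D spanned nearly the whole range. Sycp3 (mm9 chr10:87922314-87935981, + strand), a protein of the chromosome axis, gave 126.7 and 347.6 in WT, 383.7 and 174.2 in Ezh2 KO, 157.4 and 81.7 in the dKO, and 217.5 and 58.2 in Y726D. The WT libraries overlapped those of each other line, and the interval of the dKO against WT ran from -2.39 to 0.63 on the log2 scale. Hormad1 (mm9 chr3:95363599-95391593, + strand), a protein of the chromosome axis needed for meiotic recombination, was highest in WT, with 305.5 and 259.0, against 210.2 and 168.4 in Ezh2 KO, 182.2 and 178.5 in the dKO and 206.8 and 250.6 in Y726D. Its log2 fold change in the dKO was -0.64 ± 0.20 (limma, adjusted p = 0.14). Hormad1 was the 1 member whose dKO libraries both lay below both WT libraries, while 8 members had both dKO libraries above. Over all genes tested, 24.5% and 28.0% did so.

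**Figure D2:**
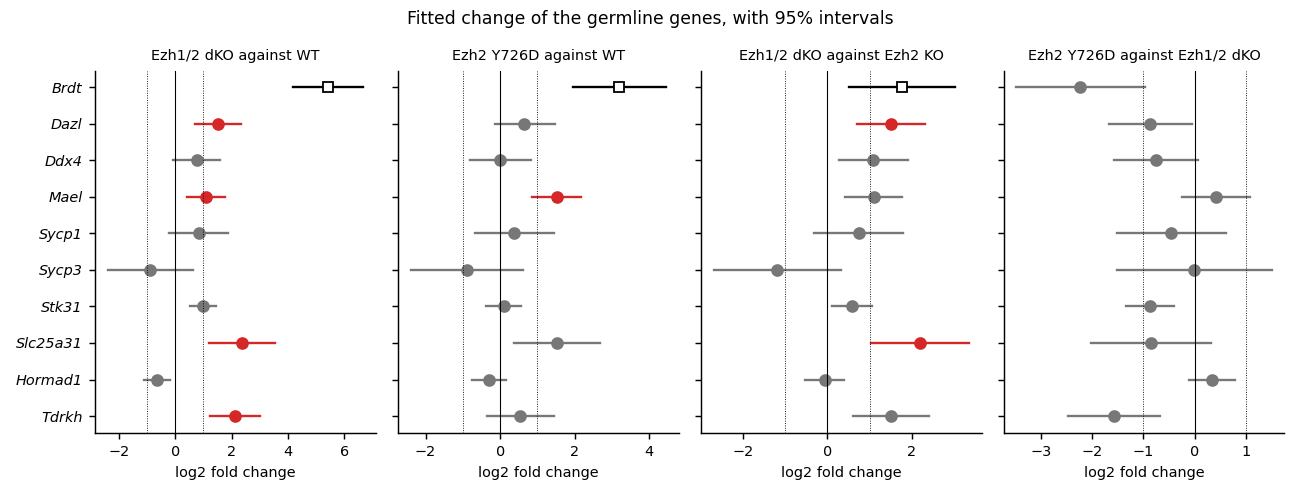
Fitted log2 fold changes (x axis) of the 10 germline genes (y axis) in 4 comparisons, with 95% intervals from limma; red points passed the threshold, grey points did not, and open squares mark Brdt where it was not tested. Slc25a31 at 2.38 and Tdrkh at 2.12 lead the tested members in the dKO against WT, and no member was called between Y726D and the dKO.

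Per kilobase of merged GENCODE exons, the order of the members differed between WT and the dKO. In WT, Sycp3 (188 ± 124 normalized counts per kb, SD, n = 2) and Hormad1 (163 ± 19.0) stood highest and did not differ beyond their spread. Stk31 (62.3 ± 2.76), Mael (56.7 ± 15.0) and Dazl (51.8 ± 29.4) followed within each other's spread, and Ddx4 (36.3 ± 4.96) lay within that of Dazl. Sycp1 (8.82 ± 3.23) and Slc25a31 (7.59 ± 3.20) did not differ beyond their spread, Tdrkh (3.30 ± 0.70) lay below both, and Brdt was lowest at 0.0941 ± 0.133. In the dKO, Dazl was highest at 137 ± 6.78 per kb, followed by Stk31 (123 ± 11.6) and Mael (121 ± 21.8), which did not differ beyond their spread, and Brdt was still lowest at 11.7 ± 2.15, near Tdrkh at 15.1 ± 1.27. All members other than Brdt had reads in both WT libraries.

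In Y726D against WT, Mael alone rose among the 9 members other than Brdt, by 1.52 ± 0.30 on the log2 scale (limma, adjusted p = 0.0467), while 1.66% of all genes were called higher and 1.06% lower. Leaving out WT replicate 2 or Y726D replicate 2 left 0 of 9 called, and so did a fit of the WT and Y726D libraries alone (adjusted p = 0.148 for Mael). Slc25a31 had a fold as large, 1.52 ± 0.52, with an adjusted p of 0.208 by limma, and its Y726D libraries did not overlap those of WT. Tdrkh differed by 0.54 ± 0.40 and Stk31 by 0.10 ± 0.21 on the same scale, neither of them called. The 95% interval for Stk31, from -0.37 to 0.57, overlapped its interval in the dKO against WT, from 0.51 to 1.45. In Y726D the interval for Sycp3, from -2.40 to 0.62, was wide.

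Against Ezh2 KO, in which EZH1 is the one remaining enzyme, the dKO was higher for Dazl, by 1.5 ± 0.36 (limma, adjusted p = 0.0734), and for Slc25a31, by 2.19 ± 0.52 (limma, adjusted p = 0.0717), 2 of the 9 members other than Brdt. Over all genes, 3.52% were called higher and 0.0577% lower. Tdrkh (1.51 ± 0.40, limma, adjusted p = 0.104) and Mael (1.10 ± 0.30, limma, adjusted p = 0.108) lay just outside the threshold. The count depended on the fit. When the Ezh2 KO and dKO libraries were fitted alone, 6 of 9 were called, as were 1181 of the 13872 genes, with Dazl, Ddx4, Mael, Slc25a31 and Tdrkh higher in the dKO and Sycp3 lower (-1.18; limma, adjusted p = 0.0755). The count was 0 of 9 when any 1 of these 4 libraries was left out. Between Ezh2 KO and WT, the members other than Brdt differed by -0.58 to 0.61 in fitted log2 fold change, at the ends Hormad1 and Tdrkh, and 0.404% of all genes were called in either direction. Both comparisons of the dKO use the same dKO libraries, as does that of Y726D with the dKO, and the values are given side by side.

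Y726D cells keep a catalytically inactive EZH2 protein, whereas dKO cells have neither enzyme. None of the 10 members was called between them by limma, against 1.68% of all genes, and 4 of 10 had an unadjusted p under 0.05, as had 1817 of the 13872 genes. Of these, Brdt, Tdrkh (-1.58 ± 0.40; limma, adjusted p = 0.124) and Stk31 (-0.88 ± 0.21; limma, adjusted p = 0.104) were lower in both Y726D libraries than in both dKO libraries, as was Dazl (-0.87 ± 0.36; limma, adjusted p = 0.35). edgeR called Brdt and Tdrkh lower in Y726D, and DESeq2 called Brdt. With limma, Brdt was also called when either WT library was left out, and Stk31 when Y726D replicate 1 was, 1 of 10 each time. In all, 6 members lay below the dKO without overlap and 2, Mael and Hormad1, above it, whereas 25.2% and 22.1% of all genes tested did so.

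The genes whose RNA followed Brdt most closely over the 8 libraries, out of all those tested, were Rnf149 (Pearson r = 0.973), Tuft1 (r = 0.973), Abca3 (r = 0.972), Tgfbr1 (r = 0.970) and Cd44 (r = 0.969). None of them is a germline gene by name, and Cd44, a cell surface receptor for hyaluronan, came closest in level, with no read in WT, 5.23 and 8.71 normalized counts in Ezh2 KO, 27.2 and 35.5 in the dKO and 5.35 and 15.7 in Y726D. Among the other members, r with Brdt ran from 0.86 for Tdrkh to -0.84 for Hormad1. These are descriptions over 8 libraries of 4 lines.

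The PRC2 subunit SUZ12 had a peak within 5 kb of a start at 2 of the 10 members in WT, Sycp1 and Tdrkh, and 14.4% of 22238 protein-coding genes had one. Peaks were those listed at a p of at most 1e-10. Both lay below the median of the list. The Sycp1 peak, 467 bp wide with a -log10 p of 12.2, was stronger than 14.8% of its list, and that of Tdrkh, 241 bp wide with a -log10 p of 17.1, was stronger than 35.1%. No member had a SUZ12 peak in Ezh2 KO, the dKO, Y726D or R685C, where 4.21%, 1.03%, 10.2% and 8.44% of genes did. HA peaks were also absent from all 10 members, both in dKO cells re-expressing HA-EZH1 (11.0% of genes) and in untagged dKO cells (2.91%). Absence from a list says that the caller's threshold was not reached in 1 library.

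H3K27me3 was found at more of them. In WT, Ddx4, Sycp1, Slc25a31 and Tdrkh had a peak within 5 kb, 4 of 10, against 18.8% of genes. Their -log10 p values were 19.5, 19.0, 11.8 and 25.4. In Ezh2 KO, 6 of 10 had one, against 14.8% of genes, and these were the same 4 genes with Dazl (12.9) and Mael (24.3). The Ezh2 KO peaks of the shared genes had -log10 p values of 29.9 for Ddx4, 38.5 for Sycp1, 19.9 for Slc25a31 and 129 for Tdrkh, and all 6 covered an annotated start, against 10.3% of genes, while in WT a start lay inside a peak at Sycp1 and Tdrkh, 2 of 10, against 7.74% of genes. None of the 1258 genes with a peak in WT and not in Ezh2 KO, 5.66% of genes, was a member. Depth and the height of other peaks differ between libraries, so these values order the genes within a list and do not compare the lines.

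In the dKO and in Y726D no member had an H3K27me3 peak, as was the case for all but 0.0989% and 1.35% of genes. In R685C all 10 had one, against 24.6% of genes, and each peak covered the start, which 15.6% of genes showed. The strongest were at Tdrkh (-log10 p of 193, 1912 bp), Sycp1 (155, 1606 bp), Slc25a31 (135, 1604 bp) and Ddx4 (98.4, 1031 bp), which are the 4 genes with a WT peak. Dazl (88.5), Mael (76.9), Brdt (54.5), Hormad1 (33.8), Sycp3 (29.3) and Stk31 (16.5) followed. The Brdt peak spanned 1060 bp, from 107759833 to 107760892 on chromosome 5, and held the E-box shown above. The R685C list was the longest of the 5, with 22245 peaks over 19.8 Mb, against 16754 over 14.5 Mb in WT and 8956 over 14 Mb in Ezh2 KO. The length of a list does not measure how much of the mark a line holds. No SUZ12 peak accompanied any of the 10 in R685C, a combination seen at 16.2% of genes. RNA of R685C cells was not analysed here.

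**Figure D3:**
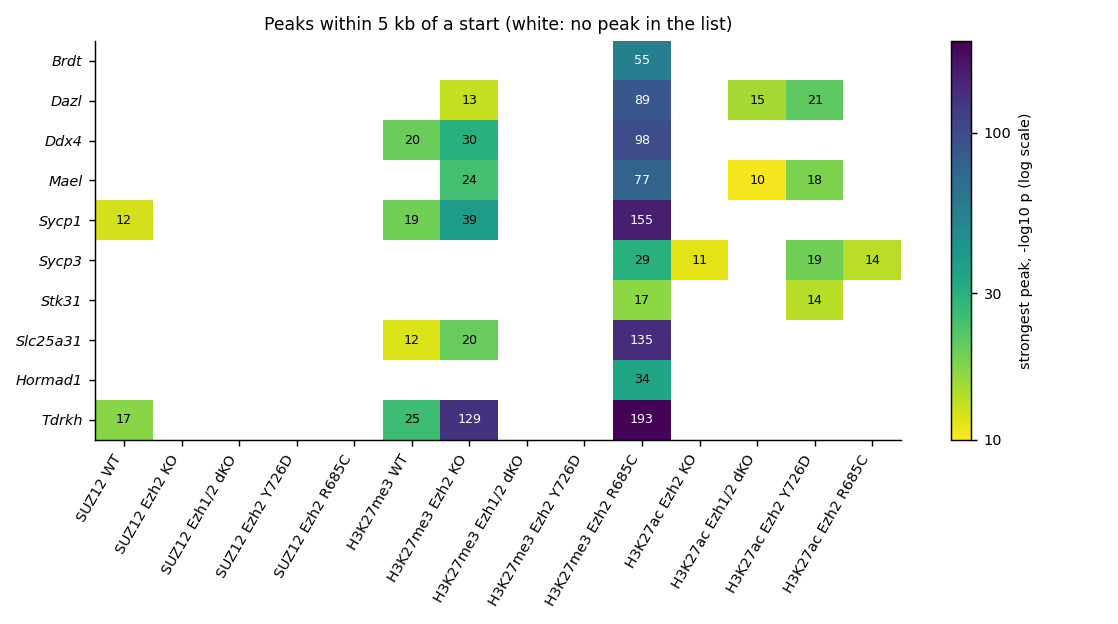
Strongest peak within 5 kb of an annotated start for the 10 germline genes (rows) in each SUZ12, H3K27me3 and H3K27ac list (columns); the number and the colour, on a log scale, give its -log10 p and white means that the list holds no peak there. All 10 have H3K27me3 in R685C and none in the dKO or Y726D.

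**Figure D4:**
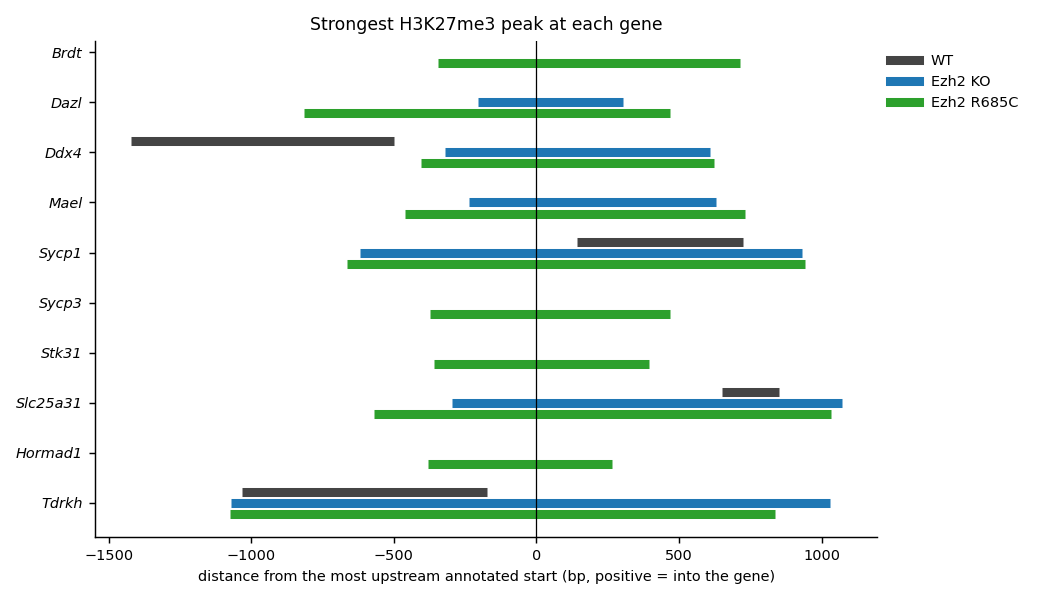
Extent of the strongest H3K27me3 peak at each gene, as the distance in bp from its most upstream annotated start (x axis, positive into the gene), in WT (grey), Ezh2 KO (blue) and R685C (green). The Ezh2 KO and R685C peaks lie across the start, whereas the WT peak of Ddx4 runs from -1423 to -500 bp.

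H3K27ac peaks within 5 kb were present at Dazl and Mael in the dKO, 2 of 10, and at Dazl, Mael, Sycp3 and Stk31 in Y726D, 4 of 10, against 28.8% and 47.2% of genes. In Ezh2 KO and in R685C, Sycp3 alone had one, 1 of 10, against 38.0% and 46.1% of genes. Dazl, with -log10 p values of 15.0 in the dKO and 21.0 in Y726D, and Mael, with 10.5 and 18.0, had H3K27me3 over the start in Ezh2 KO and H3K27ac in the dKO and Y726D. Over all genes, 2.55% had H3K27ac in the dKO and not in Ezh2 KO, and 12.1% in Y726D and not in Ezh2 KO. The share with all of these marks was not counted. For Dazl the RNA was called higher in the dKO, and for Mael in both. In Y726D, Dazl (log2 fold change 0.65 ± 0.36), Stk31 (0.10 ± 0.21) and Sycp3 (-0.89 ± 0.67) had H3K27ac and were not called against WT. Brdt, Slc25a31 and Tdrkh, whose RNA differed most between the dKO and WT, had no H3K27ac peak in any of the 4 lines profiled. Of these, Slc25a31 and Tdrkh also had H3K27me3 over the start in Ezh2 KO and were called higher in the dKO. H3K27ac in WT was not analysed here.

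The lists of H3K27me2, H3K27me1 and ATAC-seq hold broad regions at much weaker thresholds, with a median -log10 p between 1.26 and 1.51. At the start itself, an H3K27me2 region covered 8 of 10 members in Ezh2 KO, against 29.4% of genes, all but Sycp3 and Stk31, and 2 of 10 in WT (21.7% of genes), 2 of 10 in the dKO (24.0%) and 7 of 10 in Y726D (31.2%). The strongest Ezh2 KO regions near Sycp1 (-log10 p of 9.55), Slc25a31 (6.85) and Tdrkh (6.08) were stronger than 99.4% or more of their list. The strongest regions near the members in the dKO and Y726D had values from 1.21 to 1.98. H3K27me1 covered 9 of 10 starts in Ezh2 KO (20.6% of genes) against 1 of 10 in WT (23.4%), 1 of 10 in the dKO (17.9%) and 2 of 10 in Y726D (20.2%). The strongest H3K27me1 regions near the members were weak in Ezh2 KO, with -log10 p values from 1.28 to 2.22. In the dKO and Y726D they had values from 1.42 to 1.83, within that range. The paper reports that the dKO and Y726D lines lost every form of H3K27 methylation. A start inside a listed region in these lines is therefore not taken to carry H3K27me2 or H3K27me1. The H3K27me2 lists held 478485 regions in the dKO and 475687 in Y726D, against 270131 in WT and 194708 in Ezh2 KO. ATAC-seq regions covered all 10 starts in all 4 lines, as they did for 74.2% of genes in WT, 75.0% in Ezh2 KO and 73.9% in each of the dKO and Y726D. These counts of starts inside a region were added after the lists had been seen, because a 5 kb window met a region at nearly every gene in the ATAC-seq lists and at most genes in the H3K27me2 lists.

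Other germline genes gave a background for the members. Over all genes, 3.63% were called higher in the dKO against WT, 1.66% in Y726D against WT and 3.52% in the dKO against Ezh2 KO. Of 15 tested genes of the germ cell RNA pathway, Piwil2, a PIWI protein that binds piRNAs, rose in the dKO against WT (1.79 ± 0.21; limma, adjusted p = 0.0075) and in Y726D against WT (1.56 ± 0.21; limma, adjusted p = 0.0139). Its normalized counts were 62.7 and 59.7 in WT, 133.8 and 132.6 in Ezh2 KO, 216.0 and 211.3 in the dKO and 197.0 and 167.8 in Y726D, so each mutant line lay above WT. The call in Y726D held without any 1 library, and that in the dKO was lost without either dKO library. The pathway's median change in the dKO was 1.2. It covers the 15 of 21 genes that passed the filter on low values. A gene low in WT could pass through a line where it was higher, so this median can lean upward. Against Ezh2 KO, the dKO was higher for Ddx25, a germ cell RNA helicase (1.40 ± 0.35; limma, adjusted p = 0.0808), and for Piwil1 (2.97 ± 0.77; limma, adjusted p = 0.0969), the latter with 1.05 and 1.94 normalized counts in Ezh2 KO and 20.6 and 16.0 in the dKO. Both of these calls were lost without any 1 of the 4 libraries compared.

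Of 23 tested meiosis genes, 4 rose and 0 fell in the dKO against WT, where 3.63% of all genes were called higher and 0.389% lower. Tex11, an X-linked gene of meiotic recombination, changed most (2.51 ± 0.37; limma, adjusted p = 0.0157), from 56.0 and 76.1 in WT to 377.5 and 378.3 in the dKO. Tex15 (1.66 ± 0.25), the cohesin subunit Stag3 (1.16 ± 0.23) and the meiotic kleisin Rec8 (1.08 ± 0.29) were the others. In Y726D against WT, Tex11 (1.75 ± 0.37), Hormad2, a relative of Hormad1 (1.55 ± 0.39), and Tex15 (1.21 ± 0.25) rose, while 1.66% of all genes were called higher. Tex11 also rose in the dKO against Ezh2 KO (1.68 ± 0.37; limma, adjusted p = 0.0529). None of the calls in the dKO held without either dKO library, and that of Stag3 was also lost without WT replicate 1. In Y726D, Tex11 and Tex15 were lost without WT replicate 1 or either dKO library, Tex11 also without Y726D replicate 1 and Tex15 without Y726D replicate 2. The least stable were Rec8, lost when any 1 of 6 of the 8 libraries was left out, and Hormad2, lost for 7 of 8. Against Ezh2 KO, Tex11 was lost without Ezh2 KO replicate 2 or either dKO library. The median over the 23 genes was 0.67 in the dKO and 0.24 in Y726D, against WT. These were the genes that passed the filter on low values, so the medians can lean upward in the same way.

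Of 9 tested genes of germline transcription and specification, Sohlh2, a transcription factor of spermatogonia (1.18 ± 0.23), and Dppa3, which encodes Stella (1.32 ± 0.33), rose in the dKO against WT. Over all genes, 3.63% were called higher in the dKO against WT and 1.06% lower in Y726D against WT. In Y726D, Dppa3 fell by 2.66 on the log2 scale (SE 0.33; limma, adjusted p = 0.0113) and Prdm1, the regulator of germ cell specification known as BLIMP1, fell by 1.78 (SE 0.43; limma, adjusted p = 0.0864). The dKO was higher than Ezh2 KO for Sohlh2 (1.34 ± 0.23), Taf7l (1.74 ± 0.42) and Dppa3 (1.29 ± 0.33), and lower for Prdm1, by -1.79 ± 0.43. In that comparison 3.52% of all genes were called higher and 0.0577% lower. The fall of Dppa3 in Y726D held without any 1 library. The calls of Sohlh2 and Dppa3 in the dKO against WT were lost without either dKO library, and that of Dppa3 also without WT replicate 2 or Ezh2 KO replicate 1. The call of Prdm1 in Y726D was lost without either WT library, either Ezh2 KO library or Y726D replicate 2. Against Ezh2 KO, Taf7l and Dppa3 were lost without any 1 of the 4 libraries compared, and Sohlh2 and Prdm1 without any 1 of 3 of them. Between Y726D and the dKO, limma called none of the 15 RNA pathway genes (2 at an unadjusted p under 0.05), none of the 23 meiosis genes (3) and 1 of these 9, Dppa3. Among all 13872 genes tested, 1817 had an unadjusted p under 0.05 there and 1.68% were called.

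**Figure D5:**
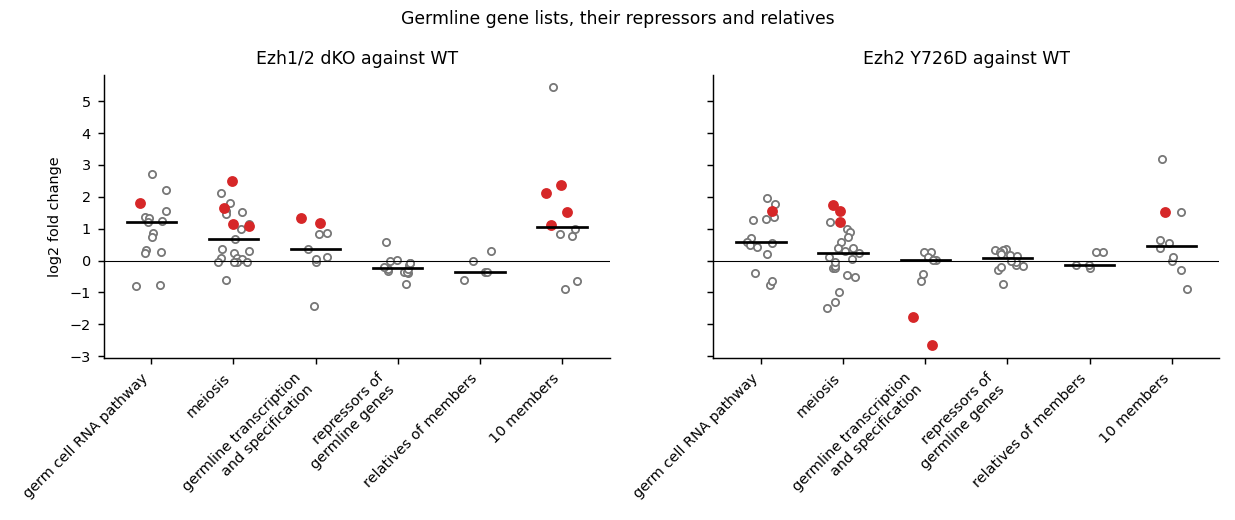
Fitted log2 fold changes (y axis) of the tested genes of each list (x axis) in the dKO and in Y726D against WT; filled points passed the threshold, open points did not or, for Brdt, were not tested, and bars are medians. In the dKO the medians are 1.2 for the germ cell RNA pathway and -0.23 for the repressors of germline genes. A gene low in WT can pass the filter through a line where it is higher, so medians of lists with low genes can lean upward.

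The known repressors and the relatives of the members showed no call. None of 14 repressors of germline genes, among them Mga, E2f6, Pcgf6, Setdb1 and Dnmt1, was called in any of the 4 comparisons by limma, and 0 to 3 of 14 had an unadjusted p under 0.05 in each. Among all 13872 genes tested, 1817 to 2582 had one. The median of the repressors in the dKO against WT was -0.23. None of the 5 relatives expressed outside the germline was called by limma either. The BET genes Brd2 and Brd3 differed in the dKO against WT by -0.61 ± 0.16 and -0.02 ± 0.12, the carriers Slc25a4 and Slc25a5 by 0.30 ± 0.21 and -0.37 ± 0.16, and the helicase Ddx3x by -0.35 ± 0.13. Of these, 3 of 5 had an unadjusted p under 0.05, as had 2582 of the 13872 genes. The direction for Brd3 turned with upper-quartile rescaling, to 0.05.

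H3K27me3 in R685C was also listed within 5 kb of 12 of 19 annotated genes of the germ cell RNA pathway, 12 of 25 meiosis genes and 7 of 11 genes of germline transcription, 3 of 14 repressors and 1 of 5 relatives, beside 24.6% of all genes. In Ezh2 KO the numbers were 8 of 19, 6 of 25, 2 of 11, 2 of 14 and 1 of 5, beside 14.8%, and in the dKO and Y726D all were 0. CACGTG, held by 7.24% of all windows, was in 7 of 17 windows of the germ cell RNA pathway, 3 of 22 of the meiosis genes, 2 of 8 of germline transcription, 3 of 14 of the repressors and 0 of 5 of the relatives. TCCCGC, held by 20% of all windows, was in 2, 12, 1, 6 and 2 of the same windows in that order.

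Some markers of other cell types differed in the dKO as well. Primitive endoderm markers, 7 of 7 in the table, summed to 20 to 36.6 normalized counts in WT, 10.5 to 30 in Ezh2 KO, 145.9 to 171.4 in the dKO and 55.9 to 63.3 in Y726D. Gata6, Sox17 and Foxa2 had no read in Ezh2 KO, and Sox17 and Foxa2 had none in Y726D. Trophectoderm markers, 6 of 6, summed to 221.4 to 241.5, 348.2 to 415.1, 527.5 to 676.6 and 540.3 to 1056 in the same order. The keratins Krt8 and Krt18 had means of 103 and 53 in WT and of 298 and 211 in the dKO. Cdx2, Eomes, Elf5 and Hand1 overlapped between WT and the dKO. Cdx2 gave 33 and 439.7 in the Y726D libraries. Of the 2-cell-like markers, 4 of 6 were in the table, and they summed to 311.0 to 696.3, 19.4 to 23.0, 653.6 to 913.7 and 81.1 to 162.2. Of the fibroblast or feeder markers, 3 of 5 were in the table and summed to 4.81 to 12, 13.6 to 16.7, 98.1 to 115.4 and 86.1 to 88.3, most of it Thy1, with no read of Col1a2 in WT. Their part in the differences of the germline genes was not tested. The sums of the 2-cell-like markers, of the 3 primed epiblast markers and of the 3 of 4 mesoderm markers in the table overlapped between WT and the dKO.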

How the data were processed

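RNA-seq values are the normalized counts the authors deposited: SMART-seq2 reads aligned to mm9 with TopHat, duplicates removed with Picard, counted over RefSeq genes by HTSeq without strand and divided by DESeq2 size factors, a signal per gene. Whole reads were recovered from them (100.0% of values within 1e-06). The authors' peak lists, made with Bowtie and MACS2 from 1 library per line and target, give a -log10 p-value for each region, or for HA its position alone. Tables of the authors' own comparisons, which hold fold changes and p-values, were not used.

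limma 3.58.1 (R 4.3.3) was fitted to log2(normalized count + 1) over all 8 libraries for 13872 genes with a mean of at least 5, with Benjamini-Hochberg adjustment. A call needed an adjusted p under 0.1 and a log2 fold change of at least 1. edgeR 4.0.16 and DESeq2 1.42.0 on the whole reads were alternatives. The fit was tested on simulated data. The labels do not say whether the 2 libraries of a line came from separate cultures, so p-values measure the spread between these libraries. Peaks with p of at most 1e-10 within 5 kb of a GENCODE start (mm9) were counted. Promoters came from RefSeq (GRCm38.p6), and all 10 members matched. The text names the 10 members, of each list at most 4 called genes per comparison, by size, the relatives (1 gene of that list is not reported here), and the 5 genes most correlated with Brdt. The members and lists were chosen with earlier results of these data known. Read intervals are exact at 95%.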

Additional observations from a re-analysis of the deposited data

Results flagged for a closer look

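Dppa3, which encodes Stella, moved in opposite directions in the 2 lines without EZH1 and wild-type EZH2. Its normalized counts were 176.1 and 105.9 in WT, 170.4 and 114.2 in Ezh2 KO, 282.7 and 413.8 in the dKO and 21.4 and 20.1 in Y726D. The libraries of the 4 lines overlapped only between WT and Ezh2 KO. It was called higher in the dKO and lower in Y726D, each against WT, and the test of the difference itself gave a log2 fold change of -3.98 ± 0.33 for Y726D against the dKO (SE, 2 libraries per line; limma, adjusted p = 0.0015). The Zscan4 genes and Zfp352, markers of 2-cell-like cells, summed to 653.6 to 913.7 normalized counts in the dKO and 81.1 to 162.2 in Y726D, and their part in the difference was not tested.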

How the results depend on the processing

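With 2 libraries per line, single libraries decided many calls. Leaving out 1 library at a time, members called ranged from 0 to 5 of 9 in the dKO against WT, 0 to 2 of 9 in Y726D against WT, 0 to 4 of 9 in the dKO against Ezh2 KO and 0 to 1 of 10 in Y726D against the dKO. A line left with 1 library was assumed to vary like the others. In Y726D against WT, a fit of those lines alone called 0. In the dKO against Ezh2 KO, 4 were called with a pseudocount of 5, 4 with upper-quartile rescaling, 1 with a mean of at least 20 and 6 with those lines alone. In Y726D against the dKO, a pseudocount of 5 and edgeR each called 2 and DESeq2 called 1. The causes were not tested.

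Over all genes, calls in the dKO against WT fell from 557 to 3 and 9 without a dKO library. In Y726D against WT, 377 became 32 in a fit of those lines alone and 156 to 220 without a dKO library or Y726D replicate 2. In the dKO against Ezh2 KO, 496 became 258 with a mean of at least 20, 1181 with those lines alone and 53 to 240 without 1 of their libraries. In Y726D against the dKO, 233 became 150 with those lines alone and 14 to 514 without 1 library.

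At a peak p of at most 1e-20, SUZ12 was left at 0 members in WT, H3K27me3 at 1 in WT, 4 in Ezh2 KO (Dazl and Slc25a31 lost) and 9 in R685C (Stk31 lost), and H3K27ac at 0 in Ezh2 KO, 0 in the dKO, 1 in Y726D and 0 in R685C. Other windows and overlaps changed no count of members.

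Some uncalled log2 fold changes changed sign, given here as ranges over leaving out 1 library. In Y726D against WT, these were Ddx4 (-0.35 to 0.36), Sycp1 (-0.19 to 0.95), Stk31 (-0.03 to 0.24), Sycp3 (-1.83 to 0.05) and Slc25a5 (-0.36 to 0.06). In the dKO against Ezh2 KO, they were Hormad1 (-0.22 to 0.10), Brd2 (-0.30 to 0.13) and Brd3 (-0.10 to 0.00), and upper-quartile rescaling gave 0.01 for Hormad1 and 0.02 for Brd3. In Y726D against the dKO, they were Sycp1 (-1.03 to 0.11), Sycp3 (-0.95 to 0.93) and Slc25a4 (-0.15 to 0.09), and edgeR and DESeq2 gave 0.21 for Sycp3. In the dKO against WT, Brd3 ranged from -0.07 to 0.03, with 0.05 under upper-quartile rescaling and 0.00 with edgeR.

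Same-numbered libraries deviated from their line means with correlations of 0.22 to 0.29 among Ezh2 KO, the dKO and Y726D and of -0.41 to -0.07 between these and WT, so the numbers were not taken to pair them. With the replicate number as a block, 4 of 9 members were called in the dKO against WT, 1 of 9 in Y726D against WT, 3 of 9 in the dKO against Ezh2 KO, with Ddx4 added, and 0 of 10 in Y726D against the dKO. A crossed block, chosen after seeing the data, swapped the replicate numbers of the mutant line compared with WT and of no other line. It thereby mismatched that line with the other mutant lines, whose same-numbered libraries deviated together. It called 3 of 9 in the dKO against WT, with Mael lost (312 genes in all), and 1 of 9 in Y726D against WT (382 genes). Brdt had 1 WT read, which limits the precision of its fold against WT.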
